A study of Oryza sativa Japonica Group with 6 samples.

Results

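The genes examined here were NIGT1 (LOC4329184), NLP1 (LOC4331508), NLP2 (LOC4336275) and NLP3 (LOC4327787), regulators of the nitrogen (N) response in rice. They were chosen by identity, NIGT1 by its gene number and the NLP genes by their symbol or synonym in RefSeq, which gives 4 of the 17905 genes with a probe set of their own. Each was read by 1 of the 57194 probe sets other than controls. The study hybridised root RNA of 10-day-old seedlings of the japonica variety TNG67 to 6 GeneChip Rice Genome Arrays. In 3 arrays the seedlings were in hydroponic solution with ammonium nitrate (+N), and in 3 arrays they had spent 1 h in the same solution without it (−N). By the sample protocol both groups were moved for 1 h, but the Methods have only −N seedlings moved, and under the Methods handling and loss of N cannot be told apart. A label of +N replicate 3 gives 0.5 h, and −N replicates 1 and 2 are titled as a reanalysis. Replicates are labelled as biological, without a statement that each was a culture of its own, and the p-values reflect their spread alone.

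NIGT1, the nitrate-inducible GARP-type transcriptional repressor 1, is a DNA-binding protein of the GARP family whose transcript rises when roots meet nitrate. NLP (NIN-like protein) factors carry an RWP-RK DNA-binding domain and a PB1 domain. In Arabidopsis, nitrate holds NLP proteins in the nucleus, where they activate nitrate-responsive genes, NIGT1 homologs among them, and these homologs in turn repress genes of nitrate uptake. Because NLP factors are controlled in large part through the location of the protein, a transcript level on an array does not measure their activity.

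After 1 h of −N, the NIGT1 transcript was about 4 times lower than in +N, and it was the member with the clearest change. NLP1 was close to 2-fold higher in −N and passed the test only when replicates were compared by number. NLP2 and NLP3 had small differences of opposite sign that did not pass. NIGT1 and NLP1 are among the genes that the study itself listed from these arrays with a 2-fold cutoff, so their direction here is not independent evidence. The study kept in its lists only genes that were also past 2-fold in its own qRT-PCR, which was not re-analysed here.

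The intensity of NIGT1 was 147.5, 146.2 and 147.7 on +N arrays 1, 2 and 3, and 36.8, 39.1 and 36.4 on −N arrays 1, 2 and 3. The groups lay far apart, and within each group the arrays were nearly level. The mean of +N was 147 ± 0.845 (SD, n = 3) and that of −N was 37.5 ± 1.46 (SD, n = 3), on the linear scale of the deposited values. The highest +N array exceeded the lowest by a factor of 1.01, and the highest −N array exceeded the lowest by 1.07. The array medians over all probe sets ran from 33.3 to 35.2, so NIGT1 in −N lay just above the middle of each array, and no detection call was used here to say whether it was above background. The fold difference by geometric means was 3.93.

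On the log2 scale NIGT1 fell by 1.97 in limma (SE 0.16, adjusted p = 0.0482 over all probe sets). Of the 57194 probe sets tested, 4 passed in that test (0.00699%), all of them lower in −N, and 1745 (3.05%) had an unadjusted p under 0.05. NIGT1 had the third smallest p-value of the array. With the replicate number as a block, which compares the arrays of equal number, the SE was 0.11 and the adjusted p = 0.00163, where 415 probe sets passed (0.726%). By pairs of equal replicate number, the log2 difference of NIGT1 went no further than from −1.90 to −2.02, with +N over −N at 4.01, 3.73 and 4.05-fold for pairs 1, 2 and 3. Groups fully apart with −N below +N were seen in 3.36% of all probe sets, and a decrease of at least 2-fold in 0.684%. The call without the block was close to the threshold. Leaving out any one of the 6 arrays raised the adjusted p to between 0.0645 and 0.361 in limma, although the log2 difference stayed between −2.01 and −1.95. The exact permutation test over the arrays gave p = 0.1 for NIGT1, the smallest that 3 against 3 arrays allow.

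**Figure D1:**
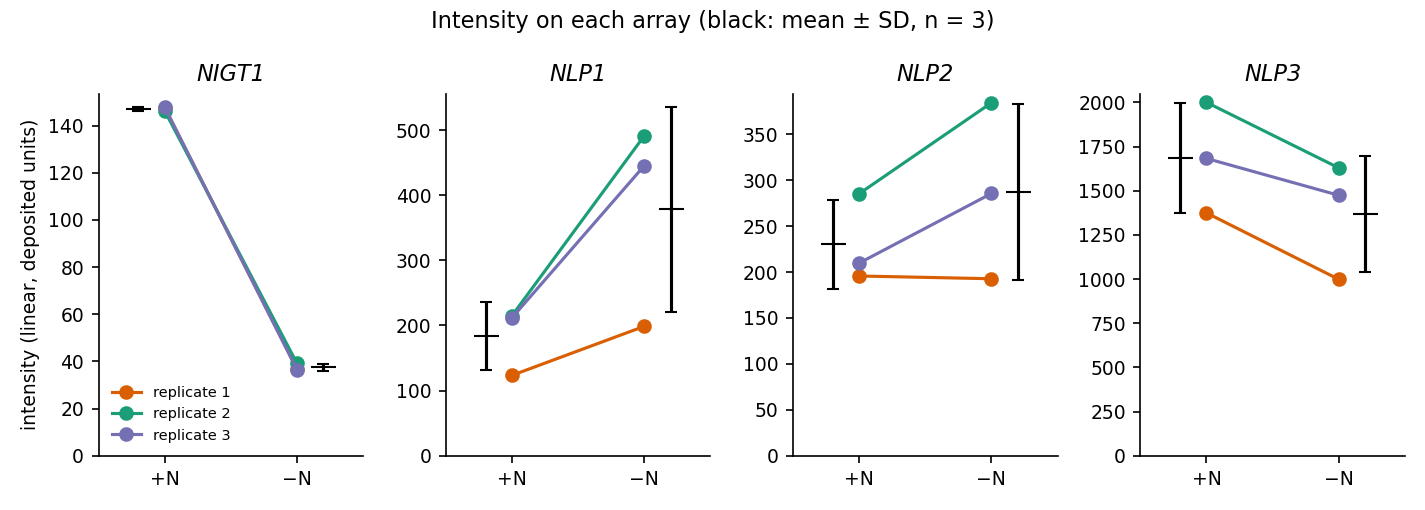
Linear intensity of NIGT1, NLP1, NLP2 and NLP3 on each of the 6 arrays, in deposited units, with lines joining +N and −N arrays of equal replicate number and black bars for the mean ± SD of 3 arrays. NIGT1 falls from between 146.2 and 147.7 to between 36.4 and 39.1, while replicate 1 is the lowest line for every NLP gene.

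NIGT1 stood out by how little its arrays varied. Its SD within groups was 0.040 on the log2 scale, and 94 of the 57194 probe sets (0.164%) had a smaller one, against a median SD of 0.30. In all, 39 probe sets differed between −N and +N by at least as much as NIGT1 in either direction, and none of the other 38 had a smaller spread. The moderated test does not take such a small spread at face value. It drew the residual SD of 0.040 towards that of all probe sets, to 0.20, which sets the SE quoted above. The evenness of the +N arrays belongs to the deposited scale. After quantile normalization, which gives every array the same distribution of values, NIGT1 had intensities of 172.7, 134.5 and 141.5 in +N and 36.4, 38.6 and 37.6 in −N. The log2 difference was then −1.98 (adjusted p = 0.0445), and 14.2% of probe sets had a smaller spread.

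**Figure D2:**
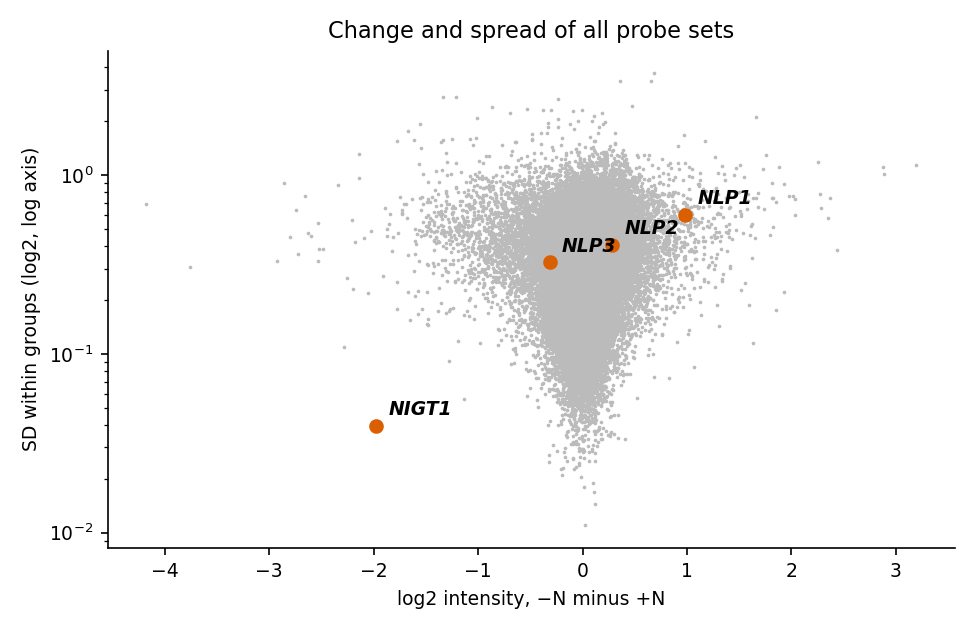
Each grey point is 1 of 57194 probe sets, with the log2 difference of −N minus +N on the horizontal axis and the SD within groups (log2 scale, logarithmic axis) on the vertical axis, and the 4 members in orange. NIGT1 lies far to the left at an SD of 0.040, well below the other probe sets with a change of that size. NLP2 and NLP3 lie within the main cloud. NLP1 lies towards its right edge, with a lower log2 difference in 99.6% of probe sets.

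NLP1, which in rice has been tied to growth on limiting N, went the other way. The intensity of NLP1 was 123.4, 215.1 and 211.9 on +N arrays 1, 2 and 3, and 198.7, 491.3 and 445.3 on −N arrays 1, 2 and 3. The lowest −N array, of replicate 1, lay below the +N arrays of replicates 2 and 3, so the groups overlapped. The mean of +N was 183 ± 52.0 (SD, n = 3) and that of −N was 378 ± 157 (SD, n = 3). Within pairs of equal number NLP1 was higher in −N each time, by 1.61, 2.28 and 2.10-fold. Of all probe sets, 16.5% were higher in −N in all 3 pairs, and 0.365% were at least 2-fold higher by geometric means. At 1.98-fold NLP1 did not reach that cutoff, although its arithmetic means above lie just over 2-fold apart. The study listed NLP1 as past 2-fold both on the arrays and in its own qRT-PCR. Its way of averaging the arrays was not reproduced here.

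The log2 difference of NLP1 was 0.98 in limma (SE 0.39), with a 95% interval from 0.09 to 1.88, and it did not pass the test (unadjusted p = 0.0352, adjusted p = 1). With the block the SE was 0.13 and NLP1 rose (adjusted p = 0.0326), one of 190 probe sets called higher (0.332%). That call was not firm. When the blocked test was run on 1 probe set for each of 17905 genes the adjusted p was 0.0634, without the pair of replicate 2 it was 0.0846, and without the pair of replicate 3 it was 0.253. After quantile normalization the NLP1 arrays no longer overlapped, with 143.2, 194.6 and 202.0 in +N and 250.5, 423.8 and 400.0 in −N. The share of all probe sets with −N fully above +N was 3.91% on that scale and 2.53% on the deposited one.

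NLP2, a further member of the NLP family, had no clear difference. The intensity of NLP2 was 195.7, 285.4 and 209.8 in +N and 192.7, 384.4 and 285.6 in −N, in the order of replicates 1, 2 and 3. The groups overlapped widely, with −N slightly below +N in pair 1 and above it in pairs 2 and 3. The means were 230 ± 48.2 (SD, n = 3) and 288 ± 95.9 (SD, n = 3), and the log2 difference was 0.28 in limma (SE 0.29, adjusted p = 1). Its 95% interval ran from −0.38 to 0.95, which reaches close to 2-fold upwards. Without −N replicate 2 the difference was 0.05. With the block the adjusted p was 0.447.

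NLP3, which in rice acts in nitrate signalling downstream of the nitrate transporter NRT1.1B, leaned towards lower values in −N. The intensity of NLP3 was 1375, 2000.4 and 1683 in +N and 999, 1630 and 1474 in −N, in the order of replicates 1, 2 and 3. The groups overlapped, but −N lay below +N in each pair, by 1.38, 1.23 and 1.14-fold, as in 17.8% of all probe sets. The means were 1686 ± 313 (SD, n = 3) and 1368 ± 329 (SD, n = 3). The log2 difference was −0.32 in limma (SE 0.25, adjusted p = 1), and with the block the SE was 0.11 and the adjusted p = 0.292. The blocked 95% interval ran from −0.58 to −0.05. Without −N replicate 1 the unblocked difference was −0.10. After quantile normalization NLP3 had 1617, 1776 and 1573 in +N and 1230, 1473 and 1382 in −N, which do not overlap, against 3.75% of probe sets with −N fully below +N on that scale.

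**Figure D3:**
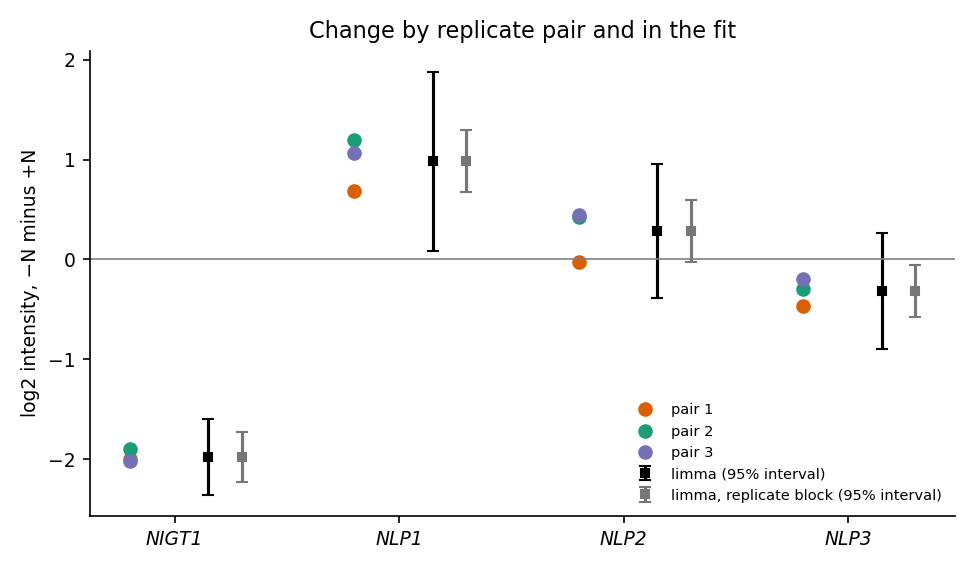
Log2 difference of −N minus +N for each member, as the 3 pairs of equal replicate number (coloured points) and as the limma estimate with its 95% interval without (black) and with (grey) the replicate number as a block. NIGT1 lies near −2 in every pair, all NLP1 pairs are above 0, all NLP3 pairs are below 0, and the NLP2 pairs lie on both sides of 0.

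The NLP genes shared a pattern across replicate numbers that NIGT1 did not show but that was also seen over the whole array. The first principal component of all probe sets (55.7% of the variance) weighted the arrays of replicate 1 at −0.565 in +N and −0.578 in −N. The other arrays had weights from 0.178 to 0.366. On the log2 scale, replicate 1 lay below the group mean in both +N and −N for each NLP gene, by 0.53 and 0.82 for NLP1, by 0.21 and 0.52 for NLP2, and by 0.28 and 0.42 for NLP3. Replicate 2 was the highest array of its group for each of them. For NIGT1 the farthest array, −N replicate 2, lay 0.064 from its group mean. The deviations from the group means correlated at 0.86 for NLP1 and NLP2, 0.96 for NLP1 and NLP3 and 0.95 for NLP2 and NLP3 over the 6 arrays, and between 0.36 and 0.56 for NIGT1 and each NLP gene. These are descriptions of 6 arrays that share their scaling and their replicate numbers. The upper quartile of the arrays ran from 131 to 180, and both arrays of replicate 1 were at the low end, at 137 in +N and 131 in −N. After quantile normalization the SD within groups shrank from 0.60 to 0.35 for NLP1, from 0.41 to 0.21 for NLP2 and from 0.33 to 0.11 for NLP3, and grew from 0.040 to 0.14 for NIGT1. On that scale +N replicate 1 was no longer the lowest +N array for NLP2 (234.3, 253.2 and 200.4) or NLP3 (1617, 1776 and 1573). The part of the array scale in the shared pattern was not tested further.

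**Figure D4:**
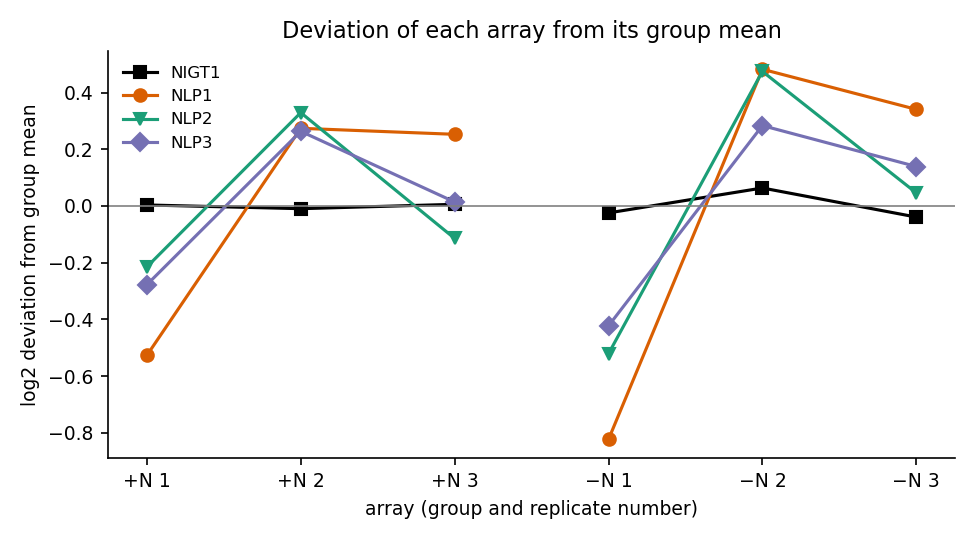
Log2 deviation of each array from the mean of its group, for the 4 members, with lines joining the arrays of a group. The NLP genes are low on both arrays of replicate 1 and highest on replicate 2, whereas the farthest NIGT1 array lies 0.064 from 0.

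Differences between members within an array are free of any factor that multiplies a whole array, so the changes of the members were compared on that basis. The level of one probe set cannot be set against that of another, but the change can. The change of NLP1 exceeded that of NLP2 by 0.70 on the log2 scale, at 0.71, 0.76 and 0.63 in pairs 1, 2 and 3. The change of NLP1 exceeded that of NLP3 by 1.30, at 1.15, 1.49 and 1.26. The change of NLP2 exceeded that of NLP3 by 0.60, at 0.44, 0.73 and 0.64. The order NLP1, NLP2, NLP3 thus held in every pair. The array medians ran from 33.3 to 35.2 and the upper quartiles from 131 to 180, so the arrays did not differ by a single factor. A difference in array scale that varies with intensity would not cancel between genes of unlike level, and its part was not tested. The change of NIGT1 minus that of NLP1 was −2.96, and for NLP2 and NLP3 the same difference was −2.26 and −1.66. For each of these 6 comparisons the exact two-sided permutation test on the log2 ratio of the genes gave p = 0.1 (0.1 after Benjamini-Hochberg adjustment over the 6), the smallest p the design allows. An exact permutation test by sign flips of the pairs gave p = 0.25, again the smallest possible.

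The other genes of the pathway were read from lists, each gene by its brightest probe set. Of the RWP-RK family only NLP1, NLP2 and NLP3 could be matched by name. In the GARP family, the family of NIGT1, 13 genes were matched and 11 measured, and NIGT1 was the only one that passed, with or without the block. Besides NIGT1 the list held PHR, GLK, SLL1, PCL1 and type-B response regulator genes. It held no other gene of the NIGT1 type, so the closest relatives of NIGT1 were not compared. The log2 differences of the family had a median of −0.04, against −0.003 over all probe sets, and ran from −1.97 for NIGT1 to 0.12 for the type-B response regulator gene RR22. The phosphate starvation regulators PHR1, PHR2 and PHR3, also GARP proteins, had log2 differences of −0.07, −0.05 and 0.07.

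The list of nitrate uptake and reduction, whose Arabidopsis counterparts include targets of NLP and NIGT1 proteins, had 9 measured genes. Besides nitrate transporter, partner and reductase genes, it held loci matched by name as ferredoxin-NADP reductase (FNR), and the genes 6PGDH2 and G6PGH1. Of the 9, none passed in limma and 3 were lower with the block, where 0.393% of all probe sets were called lower. The list had a median log2 difference of −0.21, against −0.003 over all probe sets. At an unadjusted p under 0.05 without the block, 4 of its genes were lower and 0 higher, against 1.76% and 1.29% of all probe sets. The 4 were NIA1, 6PGDH2 and the FNR loci LOC4334338 and LFNR1. LFNR1 had a log2 difference of −1.27 and did not pass in limma with the block (adjusted p = 0.145). The list median was the value of a further FNR locus, LOC4342399. Loci matched by the name FNR thus shape both the count and the median of the list. The nitrate reductase gene NIA1 (LOC4345795) had a log2 difference of −2.86 (adjusted p = 0.449, and 0.00428 with the block), the lowest of the list. The ferredoxin-NADP reductase gene FNR (LOC4334338) had −1.48 (adjusted p = 0.0997, and 0.0112 with the block), and the pentose phosphate pathway gene 6PGDH2 had −1.29 (adjusted p = 0.367, and 0.0235 with the block). All 3 were listed by the study from these arrays, after a check by its own qRT-PCR. The high-affinity nitrate transporter genes NRT2.2 and NRT2.3 and the partner gene NAR2.2 had log2 differences of −0.02, 0.29 and −0.20, with 0.29 the highest of the list.

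Of 7 measured genes of other N signalling, none passed in limma. With the block 0 were higher and 1 was lower, against 0.332% and 0.393% of all probe sets, and the median log2 difference was −0.09. That gene was MADS25, a root MADS-box factor that responds to nitrate, with a log2 difference of −0.996 (adjusted p = 0.681, and 0.0392 with the block), the lowest of the list. The highest was 0.04 for GLB. At an unadjusted p under 0.05 without the block, 2 genes of the list were lower and 0 higher, against 1.76% and 1.29% of all probe sets. These were MADS25 and CIPK23, which had a log2 difference of −0.66 and did not pass in limma with the block (adjusted p = 0.0793). Of 16 measured phosphate starvation genes, none passed with or without the block, none had an unadjusted p under 0.05, and their median was 0.01. They ran from −0.47 for SPX2, whose family senses phosphate status, to 0.59 for the phosphate transporter gene PT1 (LOC4331635).

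**Figure D5:**
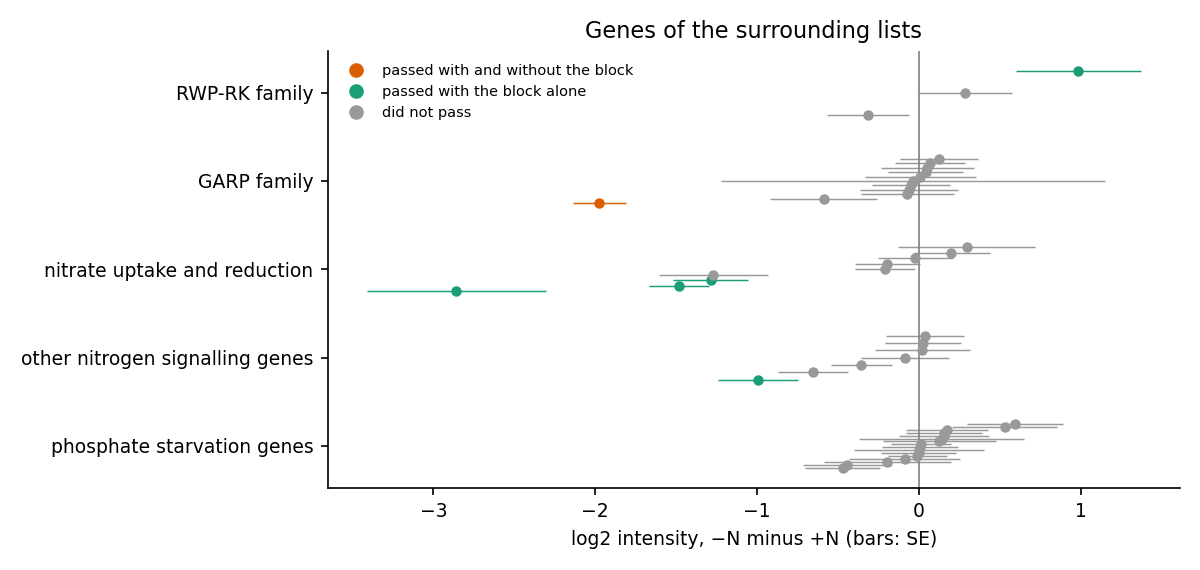
Log2 difference of −N minus +N with its SE for each measured gene of the lists, coloured by whether it passed in limma with and without the block (orange), with the block alone (green) or in neither (grey). NIGT1 is the orange point at −1.97 in the GARP family, and the phosphate starvation genes lie between −0.47 and 0.59.

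The genes whose pattern over the 6 arrays was most like that of NIGT1, among 695 named genes with an SD of at least 0.5 on the log2 scale, were NAC071, STAR2, CIPK14, FNR and PP2C39. NAC071, also called NAC5, a NAC transcription factor gene, correlated with NIGT1 at r = 0.99 and fell from 2056 to 270.1 by geometric means. STAR2, a subunit of an ABC transporter, correlated at 0.98 and went from 1706 to 410. For CIPK14 (a kinase gene that may share probes with CIPK15), FNR and PP2C39, r was between 0.97 and 0.98. All were lower in −N, and with arrays in 2 groups such an r mostly restates the difference between the groups. For NLP1 the closest were VIT1.2, a vacuolar iron transporter gene (r = 0.99), LOX5, a lipoxygenase gene (0.99), BAT1 (0.98), SPS2 (0.98) and AOS, an allene oxide synthase gene of jasmonate synthesis (0.98). Their log2 differences ran from 0.67 for SPS2 to 1.11 for VIT1.2. With the block, VIT1.2, LOX5 and BAT1 passed (adjusted p = 0.0341, 0.0426 and 0.0361) and SPS2 and AOS did not (0.0544 and 0.0601). These genes were picked for their likeness to NLP1 on the same arrays, so their calls are not separate evidence. Each was read by its best-correlated probe set, and for BAT1 the brightest probe set had a log2 difference of 0.59.

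The tissue was checked with marker genes. Of the root markers 6 were measured, among them the silicon transporter genes LSI1 and LSI2, and without detection calls none was called present or absent. The summed level of the root markers was 17591 to 24048 in +N and 16630 to 21835 in −N. Most of it came from LSI1 and LSI2, with geometric means of 14900 and 5327 in +N. The other root markers had 19.1 (SCR1) to 695 (CASP1) there, so the sum says little about them. All 4 measured markers of green shoot tissue had negative log2 differences, from −1.41 for PSAH to −0.59 for GLK1, which is also in the GARP list. None passed in limma with or without the block. At an unadjusted p under 0.05 without the block 3 were lower, against 1.76% of all probe sets. Their summed level was 13100 to 20589 in +N and 6564 to 11401 in −N. Most of it came from CAB2R, with a geometric mean of 12792 in +N. The part of green tissue in the fall of NIGT1 was not tested. In whole roots, fewer cells of a type and less RNA per cell cannot be told apart.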

How the data were processed

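The authors deposited linear intensities, with 1 for each probe set on each array. GCOS and RMA are named in the submitters' processing notes, without version or order. The upper quartiles of the arrays differ (131 to 180), so the values are not quantile normalized as deposited. Intensities were taken to log2 without a pseudocount, 187 control probe sets were left out, and all 57194 others were tested in limma 3.58.1 (R 4.3.3; functions lmFit and eBayes; −N minus +N, two-sided, Benjamini-Hochberg over all of them, threshold 0.05). With 3 arrays in each group, their number limits the precision. The code was tested on simulated data.

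Symbols came from the platform annotation, and synonyms from RefSeq (ASM3414082v1). Of 57381 probe sets, 22436 had a single symbol, 95 several and 34850 none. Each member had 1 probe set. Members and lists were chosen with earlier results of these data known. Named beside the members are the 5 genes that correlate best with NIGT1 and with NLP1, list genes past the threshold and the ends of each list; other list genes and markers named were chosen after their values were seen. From the lists fixed at the outset, 2 type-A response regulators and a gene matched by an unrelated synonym were removed.

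Over all probe sets, deviations from the group means of arrays with equal replicate number correlated at 0.653 to 0.785, and of unequal number at −0.547 to 0.0846. The numbers were therefore taken to pair the samples. This comes from the data, not the labels.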

Additional observations from a re-analysis of the deposited data

How the results depend on the processing

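Over 20 alternatives the log2 difference of NIGT1 stayed between −2.01 and −1.61, and it passed in 11. It did not pass after median centring (−1.96, adjusted p = 0.0530), with an intensity trend in the variance (−1.97, adjusted p = 0.0522), without both −N arrays marked as a reanalysis (−2.01, adjusted p = 0.323, where the lone −N array is assumed to vary like the +N arrays), or in the 6 fits without a single array (−2.01 to −1.95, adjusted p = 0.0645 to 0.361). The value of −1.61 came from adding 16 before log2, which shrinks the change of dim genes (adjusted p = 0.0185). NLP1 ran from 0.72 to 1.40 and passed in 3, all with the replicate block: as planned (0.98), after quantile normalization (0.97, adjusted p = 0.0287) and without the pair of replicate 1 (1.13, adjusted p = 0.0444). NLP2 (0.05 to 0.54) and NLP3 (−0.46 to −0.10) kept their sign and did not pass in any. Leaving out single arrays gave 0.72 to 1.40 for NLP1.

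The number of probe sets called, 4, became 10 after quantile normalization, 2 after median centring, 19 with 1 probe set a gene, 16 with the probe sets of a gene averaged and 0 without the reanalysed arrays. Without single arrays it was 0 to 2, with 1284 to 2708 at an unadjusted p under 0.05. With the replicate block it was 415, or 111 with 1 probe set a gene, 309 after quantile normalization, and 265, 248 and 22 without the pair of replicate 1, 2 or 3. The blocked fits other than the plain one were chosen after seeing the data. With the block the lists had 1 called gene of the RWP-RK family, 3 of nitrate uptake and reduction and 1 of other N signalling, against 0 without it. The GARP family had 0 in place of 1 after median centring and without any single array (0 in each of the 6 fits). The cause of these shifts was not tested.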

Other observations

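The genes that flank the members in the RefSeq gene order were read as a description. Of the 16 genes that lie within 2 positions of NIGT1, NLP1, NLP2 or NLP3, 12 had a probe set, and their log2 differences of −N minus +N ran from −0.71 to 0.45. The lowest and the highest value both belonged to neighbours of NLP1. Beside NIGT1, 1 of 4 neighbours was matched to a probe set, with a log2 difference of −0.04, and the others were not analysed here.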
